A study of Mus musculus with 12 samples.

Results

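Commitment to the granulocyte lineage was examined by setting promyelocytes against LSK cells, both taken from the bone marrow of femur, tibia and spine of untreated C57BL/6 mice, whose age the labels do not give. The comparison used 6 of the 12 arrays of the series, 3 titled promyelocytes and 3 titled LSKs, and covered 19937 genes, each read from the row with the highest mean where several rows carried its symbol. The LSK gate took cells negative for the lineage antigens B220, Ter119, CD3, Gr-1 and CD11b and positive for Sca1 and cKit, so it pools long-lived stem cells with multipotent progenitors. Promyelocytes were sorted with Gr-1, cKit, CD34 and CD16/32 after lineage antibodies that included B220, CD3 and Sca1 had been used to set other cells aside. Myelocytes and granulocytes, 3 arrays each, come from the same strain and tissue. They enter through the shared estimate of spread and through the later step, granulocytes minus myelocytes, which uses none of the 6 arrays compared. Each sample was total RNA of a bulk population, so that fewer cells of a type and less RNA per cell cannot be told apart.

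Blood stem cells divide rarely, are held by growth factor receptors and adhesion molecules, and carry low levels of messages from several lineages. The promyelocyte is the stage of granulopoiesis at which primary (azurophil) granules are built, and its cytoplasm fills with rough endoplasmic reticulum in which the granule proteases and myeloperoxidase are folded, cut and sorted. C/EBP factors and Gfi1 direct this stage, while Hox and Meis factors, Mecom and Hlf belong to the stem cell programme.

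Differences are promyelocyte minus LSK on the log2 scale, with the standard error of the limma fit, and a gene was called where the Benjamini-Hochberg adjusted p was under 0.05 and the fold at least 2. By this rule 321 genes rose, 1.61% of those tested, and 549 genes fell, 2.75%. A fold of at least 4 was reached by 51 of the genes that rose and 92 of those that fell, and a fold of at least 8 by 9 and 18. The median difference over all genes was 0.04 with a median standard error of 0.17. Olfactory and vomeronasal receptor genes, which are not expected in these cells, set a dim level of 4.51, and limma called none of the 1194 (79 at an unadjusted p under 0.05, of which 62 had a difference above 0). Of the genes that fell 146 ended at or under that level, and of those that rose 37 started from it. For these the difference is from dim signal and no fold is given. All 3 arrays of one group lay above all 3 of the other for 315 of the genes that rose and 539 of those that fell, whereas 26.4% of all genes were separated in this way in either direction.

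**Figure D1:**
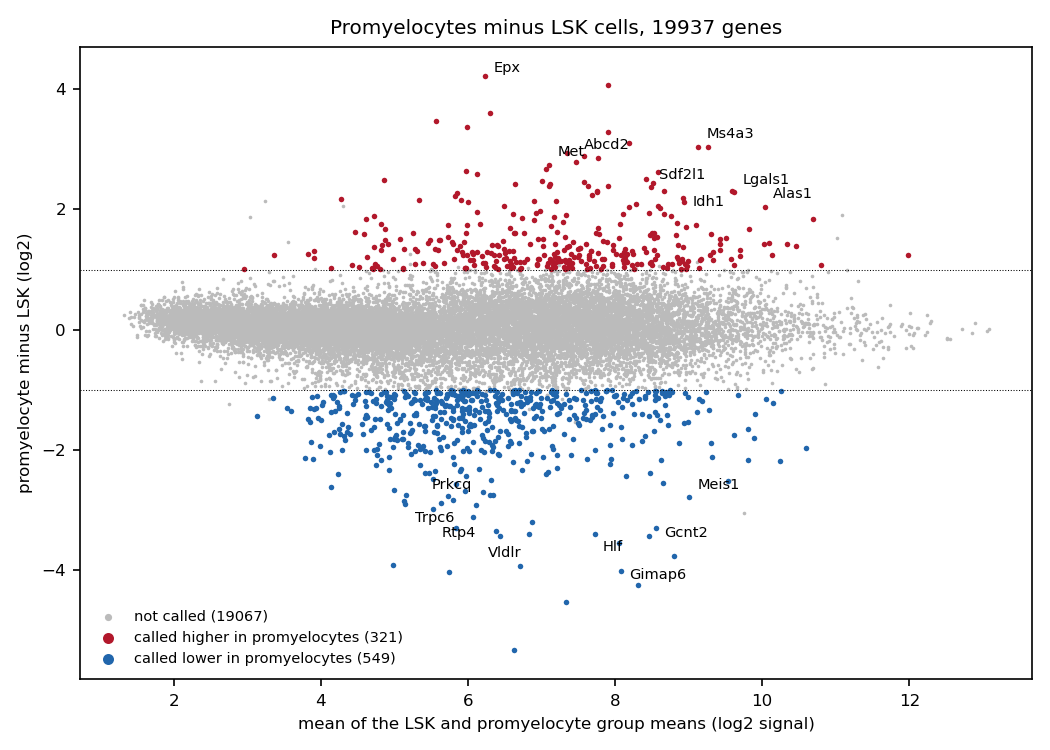
Difference between promyelocytes and LSK cells (vertical, log2) against the mean of the 2 group means (horizontal, log2 signal) for 19937 genes, 1 point each. Red points are the 321 genes called higher, blue points the 549 called lower and grey points the rest, and the dotted lines mark a fold of 2. Decreases reach further from 0 than increases.

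The arrays of a group were not equal, and this touches most of what follows. LSK 3 was the lowest LSK array for 261 of the 321 genes that rose (81.3%, against 33.9% of all genes), and the highest for 335 of the 549 that fell (61.0%, against 29.1%). Promyelocyte 1 was the highest promyelocyte array for 204 of the genes that rose (63.6%, against 26.4%), and promyelocyte 2 the highest for 321 of the genes that fell (58.5%, against 30.7%). LSK 3 thus lay farther from the promyelocytes than the other LSK arrays, and promyelocyte 2 nearer to the LSK cells for the genes that fell. Since the calls rest on those distances, these orders are a description. When each of the 12 arrays was left out in turn, 193 of the genes that rose (60.1%) and 393 of those that fell (71.6%) were called every time, and 92 and 103 lost their call without LSK 3. The count of genes that rose lay between 231, without LSK 3, and 403, without promyelocyte 3.

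The marker lists moved in the direction of the labels, which was partly set in advance. They hold antigens used for sorting, such as Kit and Fcgr3, and were chosen with earlier results of these data known. Of 10 measured LSK markers 8 fell in promyelocytes, among them Meis1, Hlf, Mecom and Procr, and of 12 promyelocyte markers 10 rose. Among the antigens used for sorting, Fcgr3 and Fcgr2b, which encode the receptors seen by the CD16/32 antibody, rose by 2.40 ± 0.41 and 1.36 ± 0.27. Kit fell by 1.02 ± 0.23 from 10.77 to 9.75 (-0.96 with LSK 3 left out, -0.96 with promyelocyte 1 left out and -0.83 with promyelocyte 3 left out, none of them called), and Cd34 differed by -0.91 ± 0.26, under the fold of 2. Itgam, the CD11b gene, differed by 0.21 and Ly6g by 0.51, and neither was called. Ly6a, which encodes Sca1, was not analysed here.

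Markers of other cells moved too. Of 7 measured eosinophil markers 5 rose, with list means of 4.64, 4.61 and 4.54 on the LSK arrays and 7.75, 5.39 and 8.16 on the promyelocyte arrays, so that promyelocyte 2 stood nearer to the LSK arrays than to the other promyelocyte arrays. Basophil and mast cell markers, 6 of 12 higher, had means of 4.76, 4.93 and 4.41 against 6.70, 5.76 and 6.16, and 3 of the 6 calls were lost without LSK 3. Monocyte and macrophage markers, 8 of 12 higher, had means of 6.76, 7.02 and 6.13 against 8.54, 7.78 and 7.92. Among them Csf1r, the receptor for macrophage colony-stimulating factor, was at 6.62, 7.25 and 5.94 in LSK cells and 9.29, 8.61 and 8.83 in promyelocytes. B cell markers fell in 4 of 10 cases, and none of 10 stromal and endothelial markers was called by limma, with 1 at an unadjusted p under 0.05. The part of admixed cells in the results below was not tested.

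**Figure D2:**
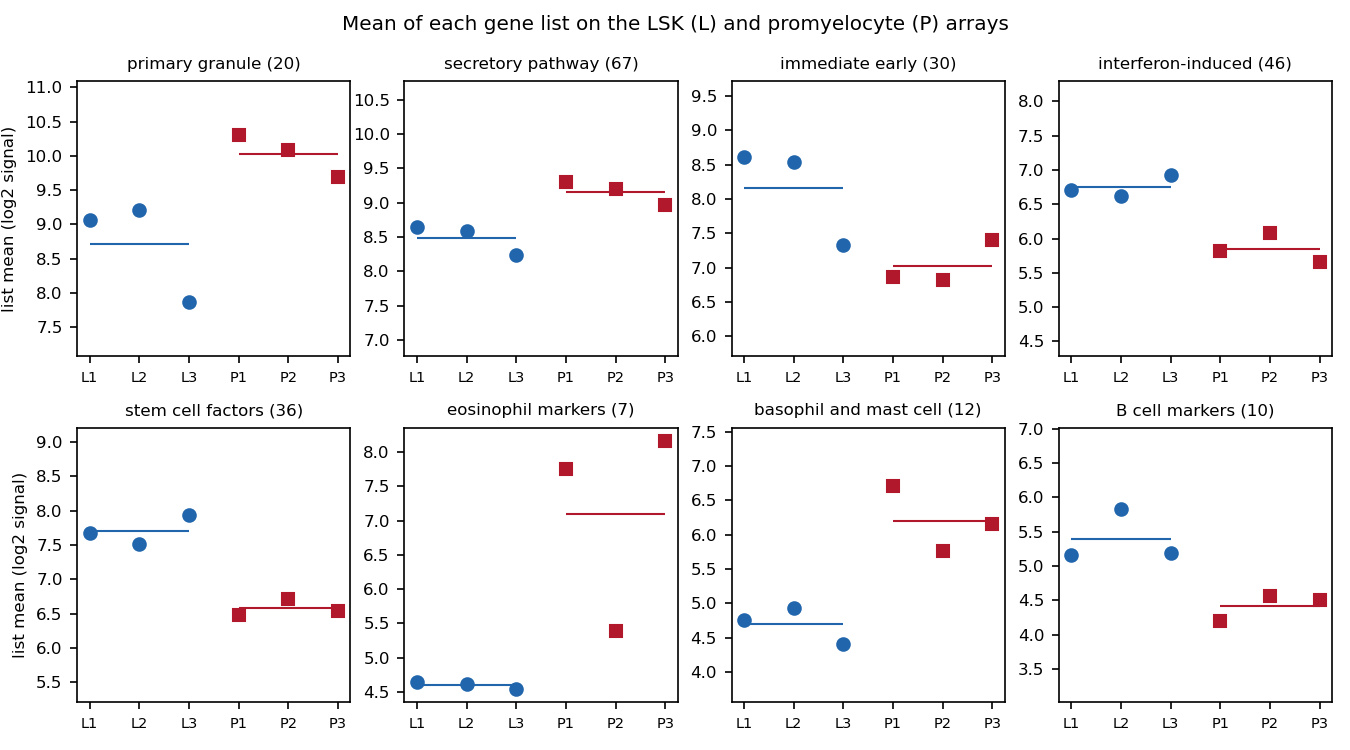
Mean log2 signal of 8 gene lists (number of measured members in parentheses) on the 3 LSK arrays (L1 to L3, blue) and the 3 promyelocyte arrays (P1 to P3, red), each point 1 array and each line a group mean, with the same span on every vertical axis. L3 is the lowest array for primary granule, secretory pathway and immediate early genes of the 3 LSK arrays, and P2 is far below P1 and P3 for the eosinophil markers.

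Of 20 genes listed for primary granules and their stage 10 were called higher, the other 10 did not pass, and the list's median difference was 1.42 against 0.04 over all genes. The called members include surface and membrane proteins (Ms4a3, Clec12a, Igsf6 and Nkg7) besides granule proteins such as Prss57, Prtn3 and Mpo, and 7 of the 10 calls held without each array in turn. Prss57, a serine protease of these granules, was at 7.08, 7.08 and 5.54 in LSK cells and 8.90, 8.77 and 8.76 in promyelocytes, a difference of 2.24 ± 0.29 (adjusted p = 0.00013). Cst7, a cysteine protease inhibitor, was at 8.30, 9.09 and 7.28 against 10.23, 10.07 and 9.62 (1.75 ± 0.37), and Plac8 at 9.77, 9.98 and 9.13 against 11.19, 11.19 and 10.77 (1.42 ± 0.25). In all 3 genes the groups did not overlap and LSK 3 was the lowest array. Prtn3, the proteinase 3 gene, rose by 1.84 ± 0.38 and Igsf6 rose by 2.31 ± 0.44, but without LSK 3 the differences were 1.21 and 1.52. Nkg7 (1.42) and Clec12a (1.53) lost their calls without LSK 3 (0.98 and 0.90), Clec12a also without promyelocyte 1 (1.39, adjusted p = 0.055), and Mpo, the peroxidase itself, was called in 8 of the 12 fits. Its difference of 1.24 became 0.79 without LSK 3, 1.17 without promyelocyte 1, 1.12 without promyelocyte 2 and stayed at 1.24 without myelocyte 2, where the adjusted p was 0.052.

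Some genes of later granules and of the oxidase rose. Of 25 secondary and later granule genes 8 rose and Padi4, an enzyme of histone citrullination, fell by 1.53 ± 0.23. The haptoglobin gene Hp stood at 7.43, 8.05 and 6.04 in LSK cells and 10.03, 9.56 and 9.44 in promyelocytes (2.50 ± 0.35, 5.67-fold). Slpi, an inhibitor of neutrophil proteases, was at 4.76, 5.06 and 4.76 against 7.03, 6.18 and 6.59 (1.74 ± 0.24), and Mcemp1 rose by 1.54 ± 0.23. No array of the lower group reached the higher group in these genes. Of 7 measured NADPH oxidase genes 4 rose. Cybb, which encodes the catalytic subunit gp91phox, was at 7.44, 7.45 and 6.83 against 9.76, 8.62 and 9.63 (2.10 ± 0.25, adjusted p = 5.6e-05). The proton channel gene Hvcn1, which balances the charge that the oxidase moves, was at 6.15, 6.48 and 5.31 against 8.24, 7.81 and 7.39 (1.83 ± 0.26), and the cytosolic subunit gene Ncf1 rose by 1.16 ± 0.17. Cyba (1.18) lost its call without promyelocyte 1 (0.98).

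Genes of the machinery that folds and exports secreted proteins were higher in promyelocytes, most of them by less than a fold of 2. Of 67 measured genes of the secretory pathway and protein folding 14 were called higher and the other 53 did not pass, 60 had a difference above 0, and the median was 0.68. In 43 of the 67 every promyelocyte array lay above every LSK array, and in none the reverse. Over all genes 26.4% were separated in this way, both directions counted together. Sdf2l1, a partner of the chaperone BiP, was at 7.51, 7.62 and 6.78 in LSK cells and 9.97, 9.58 and 9.48 in promyelocytes, a difference of 2.37 ± 0.23 (5.17-fold, adjusted p = 1.3e-05). Hyou1, an exchange factor of the same chaperone, was at 8.81, 8.99 and 8.22 against 10.32, 10.24 and 10.01 (1.51), and the disulphide isomerase gene Pdia6 at 10.23, 9.90 and 9.16 against 11.17, 11.16 and 11.15 (1.40 ± 0.22). Promyelocyte arrays agreed closely in Pdia6, while LSK 3 lay 0.74 or more under the other LSK arrays. The disulphide oxidase gene Ero1a rose by 1.55 ± 0.16, Pdia5 by 1.46 ± 0.20 and Pdia4 by 1.32 ± 0.20. Edem1, which sends misfolded glycoproteins to degradation, rose by 1.32 ± 0.19, and Rpn1, a subunit of the oligosaccharyltransferase, by 1.24 ± 0.21.

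Below the fold of 2, Hsp90b1, the chaperone GRP94, differed by 0.99 ± 0.16 (adjusted p = 0.00065), Hspa5, the chaperone BiP, by 0.95 ± 0.17 and Calr, the lectin calreticulin, by 0.81 ± 0.15. The transcription factors of the unfolded protein response differed less: Xbp1 by 0.74 ± 0.20 and Atf4 by 0.15 ± 0.18, and Ddit3, the CHOP gene of its death branch, by -0.41 ± 0.19, none of them called. The list's count of calls moved with the arrays, to 9 without LSK 3 and to 23 without LSK 1 or without promyelocyte 3. The 6 calls that were lost in some fit were those of Creld2 (1.15, and 0.98 without promyelocyte 3), Ero1b (1.07, and 0.92 without LSK 3), P4hb (1.07, and 0.87 without LSK 3), Sec24d (1.06, and 0.99 without LSK 3), Ssr4 (1.17, and 0.88 without LSK 3 or 0.96 without promyelocyte 1) and Ostc (1.08, and 0.89 without LSK 3, 0.94 without promyelocyte 1 or 0.99 without promyelocyte 2).

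**Figure D3:**
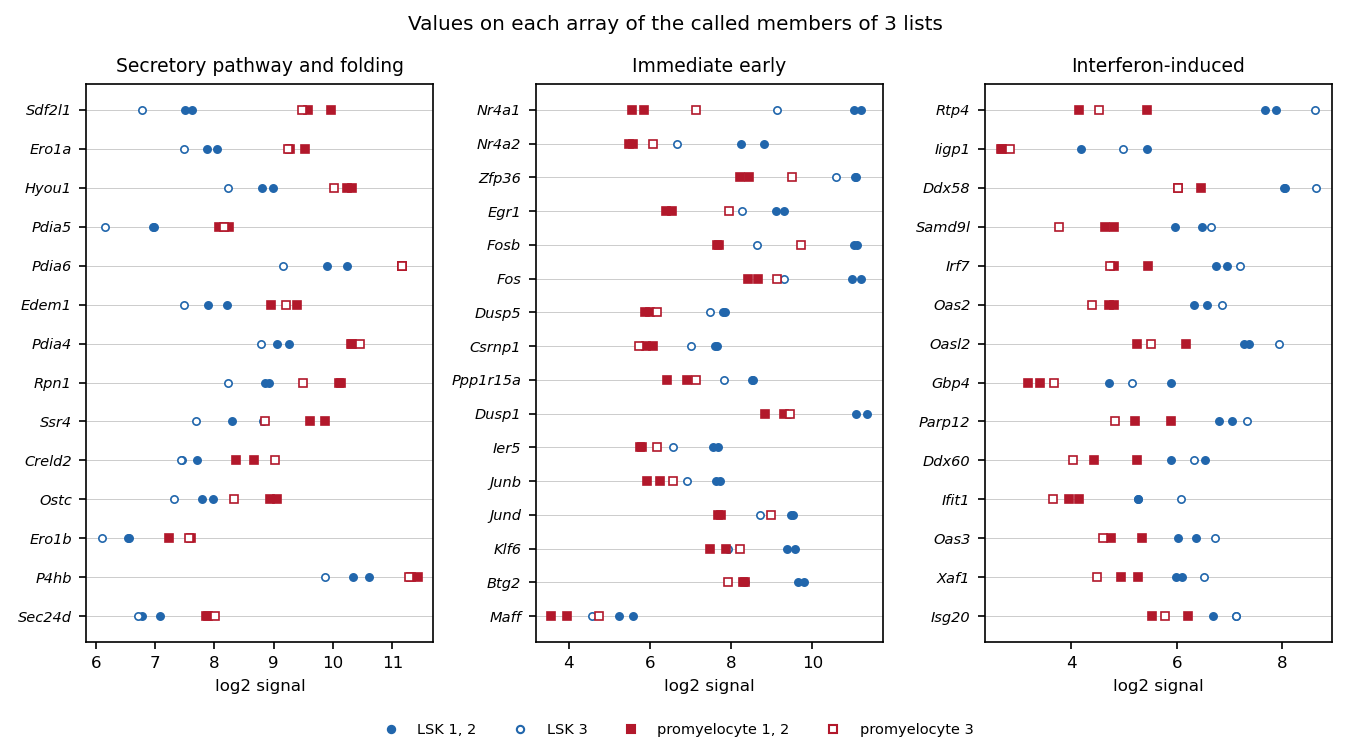
Log2 signal (horizontal) of the called members of the secretory pathway list (14 genes), the immediate early list (16 genes) and the interferon-induced list (14 genes) on each LSK array (blue circles) and each promyelocyte array (red squares), with open symbols for replicate 3 of each group. LSK 3 is on the outer side for the secretory genes and on the inner side, towards the promyelocytes, for the immediate early genes.

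A sequence that the comparison did not use was found in a minority of this list's promoters. The ER stress element, bound by ATF6 and XBP1, was searched as CCAAT and CCACG separated by 9 bases on either strand of the RefSeq promoters (GRCm38.p6, reaching from 250 bases before to 50 after a start site), of which 15562 tested genes had one. It was found in 20 promoters (0.129%), and 9 of the 20 belong to the list of 67. All 9 had a difference above 0: Pdia6, Creld2 and Ero1b were called, and Hsp90b1, Hspa5, Calr, Dnajc3, Canx and Syvn1 were not. Of the other 11 genes 3 had a difference above 0, and their median was -0.04. This split rests on which genes were put in the list. The 11 include the endoplasmic reticulum genes Alg12 (0.53), Calr4 (0.30) and Derl3 (-0.24, the lowest of the 20). Of all 67 list members 60 had a difference above 0. Among list members with a promoter, 3 of 12 called genes (25%) and 6 of 43 uncalled genes (14%) held the element. A stretch of 140 bases around the element is shown for the 3 called genes and for Hsp90b1, whose promoter holds the element in both orientations. Capitals mark the element, and each stretch reads 5′ to 3′ on the gene's strand: Creld2 at chr15:88819459-88819598 (+), Pdia6 at chr12:17266430-17266569 (+), Ero1b at chr13:12565633-12565772 (+) and Hsp90b1 at chr10:86705525-86705664 (-).
Creld2: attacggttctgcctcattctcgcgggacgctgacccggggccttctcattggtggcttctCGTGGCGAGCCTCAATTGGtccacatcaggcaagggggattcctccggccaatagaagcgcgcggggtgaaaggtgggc
Pdia6: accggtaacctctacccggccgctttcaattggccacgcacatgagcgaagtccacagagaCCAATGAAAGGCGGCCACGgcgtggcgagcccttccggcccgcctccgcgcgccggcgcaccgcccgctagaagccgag
Ero1b: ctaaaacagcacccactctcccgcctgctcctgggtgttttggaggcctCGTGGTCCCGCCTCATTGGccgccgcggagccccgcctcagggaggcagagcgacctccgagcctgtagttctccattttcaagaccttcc
Hsp90b1: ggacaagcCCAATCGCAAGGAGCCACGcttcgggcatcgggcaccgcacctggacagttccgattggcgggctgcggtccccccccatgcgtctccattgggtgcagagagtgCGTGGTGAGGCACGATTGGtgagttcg

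The element began at position -126 from the start site in Creld2 and -98 in Pdia6, and a match is not evidence of binding in these cells.

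Of 30 measured Fc receptors and immune receptor chains 10 rose, 19 did not pass and Cd33 fell by 1.21 ± 0.18. Tyrobp, the adaptor DAP12, was at 7.60, 7.70 and 7.19 in LSK cells and 9.71, 8.93 and 9.65 in promyelocytes (1.93 ± 0.21, adjusted p = 2.4e-05). Trem3, a receptor that signals through it, was at 6.93, 7.32 and 5.07 against 8.84, 8.63 and 9.00 (2.38 ± 0.39). Groups did not overlap in either gene. Siglece, an inhibitory receptor for sialic acid, rose by 1.50 ± 0.20 and Cd300lb by 1.61 ± 0.19, while Trem1 (1.11) lost its call without LSK 3 (0.72), promyelocyte 1 (0.88) or promyelocyte 2 (0.95). Of 22 C-type lectin receptors 4 rose, and 2 of these calls were lost without LSK 3. Clec5a rose by 2.95 ± 0.39 and Clec7a, the beta-glucan receptor Dectin-1, was at 5.12, 4.82 and 4.19 against 7.38, 6.46 and 6.98 (2.23 ± 0.25). The 2 calls lost without LSK 3 were Clec4a2 (1.37, and 0.97) and Clec12a.

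Some genes that rose lie next to each other. On chromosome 1 Fcgr2b, Fcgr4 and Fcgr3, consecutive in the order of the tested genes, all rose. Fcgr3 was at 6.06, 6.97 and 4.66 against 8.70, 8.29 and 7.89, and Fcgr4 at 3.86, 4.53 and 4.22, a dim mean, against 5.27, 5.88 and 5.71. On chromosome 19 Ms4a6d, Ms4a2 and Ms4a3 formed such a run, and 5 of 14 measured Ms4a genes rose, or 3 without LSK 3 or without promyelocyte 1. Ms4a2, the beta chain of the IgE receptor, was at 4.47, 3.84 and 3.19, dim on average, against 8.42, 7.30 and 6.20, so its lowest promyelocyte array lay 1.73 above its highest LSK array. Ms4a2 is also counted among the called basophil and mast cell markers and the called Fc receptor genes above. Ms4a6c rose by 2.20 ± 0.45. Ms4a3 was at 8.37, 9.20 and 5.26 against 10.98, 10.67 and 10.31 (3.04 ± 0.66, and 1.87 without LSK 3). Ms4a6d (1.01) lost its call without LSK 3 (0.88), promyelocyte 1 (0.77) or promyelocyte 3 (0.99). All 5 were lower in granulocytes than in myelocytes.

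Of 38 transcription factors of granulocytes and monocytes 6 rose and 5 fell. Egr1, Fos and Junb, 3 of the 5 that fell, are counted again in the immediate early list below, whose calls depended on single arrays. Tfec, a relative of MITF found in macrophages, was at 7.60, 7.39 and 6.46 in LSK cells and 9.06, 8.85 and 9.32 in promyelocytes (1.93 ± 0.26, adjusted p = 0.00017). Irf8, which favours monocytes over granulocytes, was at 7.61, 8.28 and 7.22 against 10.08, 9.07 and 9.73 (1.92 ± 0.29). The C/EBP genes were unequal: Cebpa, Cebpd and Cebpe rose by 1.52, 1.43 and 1.51, whereas Cebpb (0.42 ± 0.27) and Cebpg (0.07 ± 0.14) were not called. Gfi1, a repressor that neutrophil development requires, was at 6.65, 6.76 and 6.32 against 7.82, 7.73 and 7.81 (1.21 ± 0.14), and its relative Gfi1b, a factor of erythroid and megakaryocyte cells, fell by 1.25 ± 0.21. Gfi1 and Gfi1b thus moved in opposite directions with no overlap between the groups in either. Spi1, the PU.1 gene, differed by 0.32 ± 0.17 and Runx1 by -0.04 ± 0.19, and neither was called. Irf2, a repressor of interferon signalling, fell by 1.28 ± 0.16.

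Metabolic genes rose at a few steps. In the pentose phosphate pathway, which supplies NADPH, Pgd was at 9.34, 9.36 and 8.23 in LSK cells and 10.79, 10.66 and 10.52 in promyelocytes (1.68 ± 0.23, 3.20-fold). Idh1, another source of NADPH, was at 8.23, 8.22 and 7.17 against 10.01, 10.16 and 9.82 (2.13 ± 0.23, 4.37-fold). It was the only called member of the list of 44 genes for the citric acid cycle and respiration, though its enzyme is cytosolic and not part of the mitochondrial cycle. The count for this list was 4 without LSK 1, 2 without LSK 2 and 5 without promyelocyte 3. Alas1, which starts the synthesis of the heme that myeloperoxidase and the oxidase carry, was at 9.33, 9.74 and 7.97 against 11.18, 11.28 and 10.72 (2.05 ± 0.32). In these 3 genes LSK 3 was again the lowest array by at least 1.05 and the groups stayed apart. Of 24 glycolysis and glucose uptake genes 6 rose, among them the hexokinases Hk2 (1.40 ± 0.17) and Hk3 (1.89 ± 0.23) and Pfkp (1.25 ± 0.20). The glucose transporter Slc2a3 fell by 1.40 ± 0.23 and Aldoc by 1.35 ± 0.17. Taldo1 (1.06) lost its call without LSK 3 (0.96) or promyelocyte 1 (0.95), and Slc16a1 (1.10) without LSK 3 (0.84) or promyelocyte 2 (0.89). Of leukotriene synthesis 2 enzymes rose, Alox5 (5.49, 5.83 and 5.64 against 8.07, 6.91 and 7.77) and Lta4h (1.42 ± 0.20), and the leukotriene B4 receptor Ltb4r1 rose by 1.29 ± 0.23. Fdps, an enzyme of isoprenoid synthesis, rose by 1.40 ± 0.16, while the desaturase Fads2 fell by 1.62 ± 0.29. The microsomal glutathione transferases Mgst1 and Mgst2 rose by 1.50 ± 0.31 and 1.47 ± 0.29.

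Counts of calls were small for genes of growth and division. Over all genes 1.61% were called higher and 2.75% lower, and lists this short hold few calls at such shares. By limma none of 31 mitosis genes was called (2 at an unadjusted p under 0.05), none of 32 G1 cyclins and CDK inhibitors (14), none of 31 proteasome subunits (18) and none of 21 aminoacyl-tRNA synthetases (8). Mki67 was at 10.00, 10.26 and 9.99 in LSK cells and 10.13, 9.91 and 9.99 in promyelocytes, with overlapping groups (-0.07 ± 0.26), and Cdk6 differed by 0.01 ± 0.15. Proteasome subunits leaned upwards in small steps, 30 of 31 with a difference above 0 and a median of 0.42. Of 37 DNA replication genes Cdc6 (1.09) and Rrm2 (1.11) rose, and both calls depended on single arrays: Cdc6 was at 0.89 without LSK 2 and 0.98 without promyelocyte 2, and Rrm2 at 0.87 without LSK 3 and 0.98 without promyelocyte 1. Without promyelocyte 3 the count for this list was 4. Among 50 genes of the Myc network and ribosome biogenesis, Rrs1, a ribosome assembly factor, rose by 1.38 ± 0.30 and Mycn fell, and Myc itself differed by -0.65 ± 0.26.

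**Figure D4:**
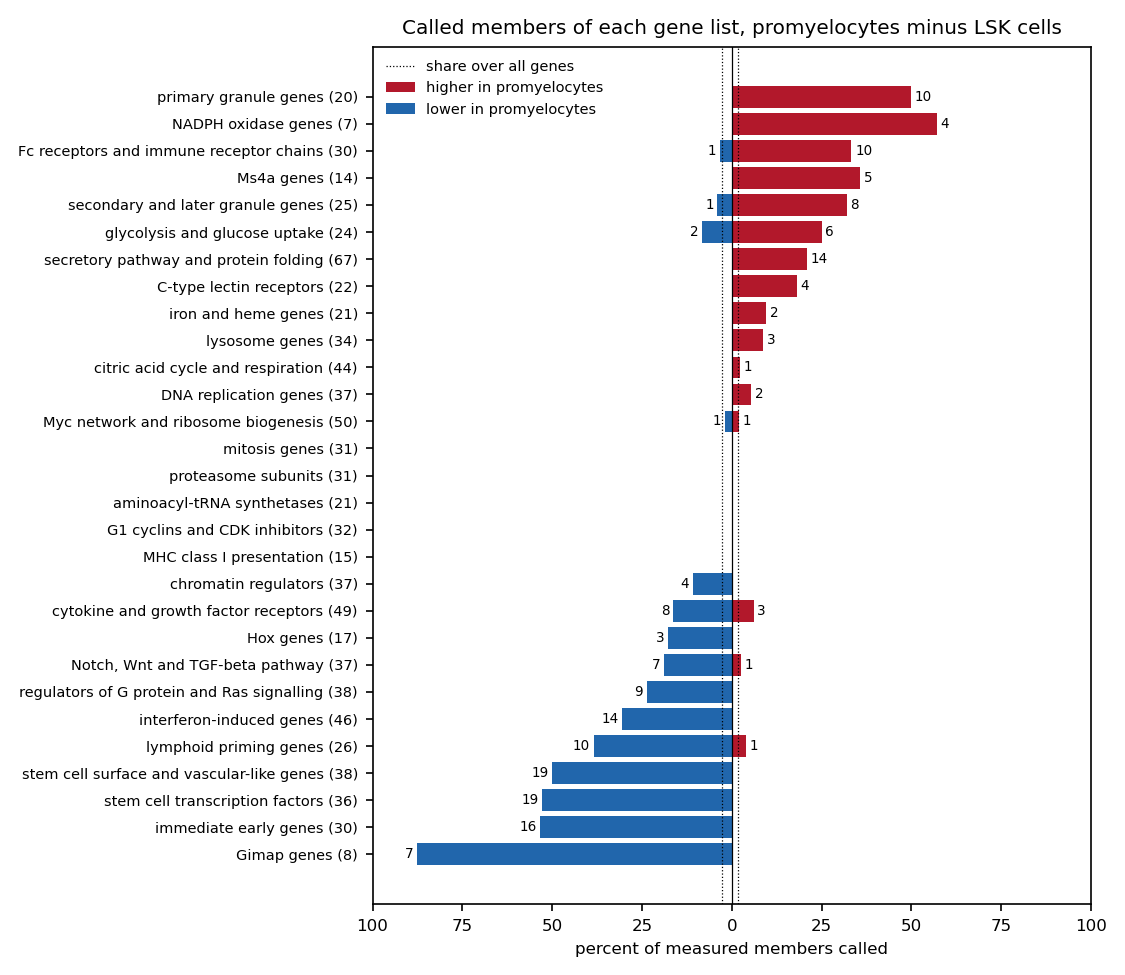
Percent of the measured members of 29 gene lists (number measured in parentheses) called in each direction in promyelocytes, increases in red to the right and decreases in blue to the left, with the count of called members at each bar. The dotted lines mark the shares over all genes, 1.61% higher and 2.75% lower. Granule, oxidase and immune receptor lists extend to the right, and stem cell, immediate early and Gimap lists to the left.

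The increases that rank 11 to 40 by size included receptors and enzymes, some of them members of the lists. Met, the receptor for hepatocyte growth factor, was at 5.62, 6.20 and 5.37 in LSK cells and 8.91, 8.03 and 8.48 in promyelocytes (2.74 ± 0.23, 6.70-fold, adjusted p = 4.7e-06), and it was lower in granulocytes than in myelocytes. Abcd2, a peroxisomal transporter of fatty acids, was at 6.52, 6.66 and 5.02 against 8.93, 8.90 and 8.77 (2.80 ± 0.30, 6.96-fold). Itga1, a collagen-binding integrin chain, was at 4.53, 5.13 and 4.29 against 8.16, 6.55 and 7.15 (2.63 ± 0.40). All 3 were called without each array in turn. Anxa3 rose by 2.62 ± 0.44, Papss2, which makes the donor for sulphation, by 2.60 ± 0.36, and Hdc, the histidine decarboxylase of basophils and granulocytes, by 2.44 ± 0.42. Lgals1, the galectin-1 gene, was at 8.49, 9.02 and 7.92 against 11.24, 10.76 and 10.29 (2.29 ± 0.36). Further increases were those of Ifi209 (2.67), Klrb1f (2.48), Tifab (2.46), Sgms2 (2.42), Atp8b4 (2.31), Gda (2.29), Apba1 (2.28) and Mefv (2.16), with LSK 3 the lowest LSK array in each of these 8. Prss34, a basophil protease, was at 11.16, 6.67 and 9.77 on the promyelocyte arrays and 6.10, 6.54 and 6.36 on the LSK arrays, so promyelocyte 2 stood 0.12 above the highest LSK array. Its difference of 2.86 lost its call without any 1 of 5 arrays and was 1.88 (adjusted p = 0.11) without promyelocyte 1, 2.58 without promyelocyte 3, 2.75 without LSK 1, 2.96 without LSK 2 and 2.87 without LSK 3. Cpa3, the carboxypeptidase of mast cells, rose by 2.40 and lost its call without LSK 3 (2.01, adjusted p = 0.0595) or promyelocyte 1 (2.05, adjusted p = 0.0515).

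Among the genes that fell were many of the stem cell lists. Of 38 stem cell surface and vascular-like genes 19 fell and the other 19 did not pass, with a median of -0.96. Mmrn1, a carrier protein of platelets and endothelium, was at 7.35, 6.14 and 7.33 in LSK cells and 2.83, 3.34 and 2.88 in promyelocytes, which is dim signal. Robo4, a guidance receptor of endothelium and stem cells, was at 6.19, 6.55 and 6.53 against 4.51, 4.28 and 4.44, and Esam, a junction protein, at 6.53, 5.90 and 6.60 against 4.32, 4.33 and 4.40. All 3 ended at or under the dim level. Procr, the protein C receptor used to enrich stem cells, fell by 1.56 ± 0.18, Tek, the angiopoietin receptor TIE2, by 1.72 ± 0.26 and its ligand Angpt1 by 2.56 ± 0.50. Tie1 fell by 1.30 ± 0.18, Eng by 1.70 ± 0.22, Calcrl by 2.23 ± 0.28, Cd27 by 1.86 ± 0.31 and Egfl7 by 1.35 ± 0.15. Of the 19 calls 18 held without each array in turn, and Ltbp3 (-1.08) came just under a fold of 2 without LSK 3.

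Of 36 stem cell transcription factors 19 fell and 17 did not pass, with a median of -1.11. Meis1, the cofactor of Hox proteins, was at 10.49, 9.98 and 10.73 against 7.39, 8.14 and 7.29 (-2.80 ± 0.27, 6.95-fold, adjusted p = 1.3e-05). Eya1, a coactivator and phosphatase, was at 7.73, 7.59 and 8.38 against 5.13, 6.02 and 5.54 (-2.34 ± 0.22), and its relative Eya2 fell by 2.32 ± 0.24. Nfia was at 6.62, 7.01 and 6.92 against 5.24, 5.25 and 4.99 (-1.70 ± 0.15). In these genes the groups lay at least 1.37 apart. Mllt3 fell by 1.69 ± 0.20, Bcl11a by 1.59 ± 0.22, Erg by 1.43 ± 0.19, Satb1 by 1.37 ± 0.17 and Mef2c by 1.15 ± 0.18. The calls for Prdm16 (-1.11) and Tsc22d1 (-1.34) were lost, the first without promyelocyte 1 (-0.96) and the other without LSK 1 (-0.96). Hox genes fell in 3 of 17 cases: Hoxa9 was at 7.94, 8.00 and 8.61 against 6.20, 6.75 and 6.36 (-1.75 ± 0.18), Hoxa5 fell by 1.52 ± 0.28, and Hoxa3 (-1.08) lost its call without LSK 3 (-0.78) or promyelocyte 1 (-0.95). Hoxa7 (-0.60) and Hoxa10 (-0.54) were not called.

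All 14 messages that the study had put forward as targets higher in LSK cells fell, which is no independent evidence, since they were chosen on these samples. Among those not named above, Cobll1 was at 7.29, 7.62 and 7.64 against 5.44, 5.62 and 5.66 (-1.95 ± 0.14), Xrcc5, a subunit of the DNA end-binding protein Ku, fell by 2.12 ± 0.22, and Trp53inp1 by 2.08 ± 0.27.

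Messages of the lymphoid lineage that were read in the LSK samples fell as well. Of 26 lymphoid priming genes 10 fell and 1, Tyrobp, rose, with a median of -0.84. Blnk, the adaptor of B cell receptor signalling, was at 5.40, 6.09 and 5.70 in LSK cells and 3.47, 4.24 and 3.46 in promyelocytes, Ebf1 at 5.22, 6.33 and 4.80 against 3.48, 3.79 and 3.86, and Rag1 at 4.62, 6.07 and 5.32 against 3.72, 3.77 and 4.12. LSK 2 was the highest LSK array in all 3, and every promyelocyte value was dim. Ltb, the lymphotoxin beta gene, was at 6.97, 6.92 and 7.64 against 5.23, 5.08 and 5.19 with no overlap, and Igll1, the surrogate light chain gene, fell by 1.85 ± 0.31. Prkcq, a kinase of T cell receptor signalling, fell by 2.76 ± 0.32. On chromosome 6 a run of 3 immunoglobulin kappa variable genes, related genes whose rows may share signal, was called lower.

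The Gimap family, GTPases of lymphocyte survival clustered on chromosome 6, fell almost as a whole. Of 8 measured members 7 fell, with a median of -1.55, and they are consecutive among tested genes in the order Gimap8, Gimap9, Gimap4, Gimap6, Gimap7, Gimap1 and Gimap5. Gimap1 was at 8.20, 7.99 and 8.61 in LSK cells and 5.60, 6.38 and 5.72 in promyelocytes (-2.37 ± 0.30), and Gimap9 at 7.47, 7.34 and 7.29 against 6.03, 6.52 and 5.86 (-1.24 ± 0.17). Gimap6 fell by 4.01 ± 0.34 and Gimap8 by 2.26 ± 0.22, and Gimap4, Gimap5, Gimap7 and Gimap8 ended at dim signal. Groups stayed apart in each, and all 7 calls held without each array in turn. Gimap3 was dim in both groups (3.51 and 3.26). A further run on chromosome 3 joined Med12l, Gpr171 and P2ry14, which fell by 2.09 ± 0.17, 2.15 ± 0.32 and 1.94 ± 0.39. Gpr171 and P2ry14 encode G protein-coupled receptors and lie within the Med12l locus, at 8.84, 8.22 and 9.00 against 6.61, 7.19 and 5.82 for Gpr171, and 7.93, 7.77 and 8.65 against 5.93, 6.36 and 6.22 for P2ry14. Of 8 class II presentation genes H2-Ob fell by 2.09 ± 0.28 and Cd74, the invariant chain, by 2.30, with the latter call lost without LSK 3, promyelocyte 1 or promyelocyte 2 (-2.21, -2.20 and -2.01). The list's count was 4 without myelocyte 3. None of 15 class I genes was called by limma, with 4 at an unadjusted p under 0.05.

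Among 49 cytokine and growth factor receptors 8 fell, 3 rose and 38 did not pass. Of these calls 4 of the 8 and 2 of the 3 held without each array in turn, 5 rose without LSK 2 or without promyelocyte 2, and after median centring 5 fell and 5 rose. Flt3, the receptor of multipotent progenitors, fell by 3.77 ± 0.25. Il18rap was at 7.91, 7.39 and 7.62 in LSK cells and 6.30, 6.14 and 6.19 in promyelocytes (-1.43 ± 0.16), and Il27ra at 6.82, 6.60 and 6.54 against 5.38, 5.57 and 5.17 (-1.28 ± 0.20). Neither gene overlapped between the groups. Of 23 JAK, STAT and SOCS genes 4 fell and 19 did not pass, with a median of -0.27, and 2 of the 4 calls, those of the feedback inhibitors Socs3 and Socs2, held without each array in turn. Socs3 was at 7.17, 7.66 and 6.17 against 5.07, 4.95 and 5.37 (-1.87 ± 0.28), and Socs2 fell by 1.46 ± 0.21 to dim signal. Regulators of G protein and Ras signalling fell in 9 of 38 cases. Rgs1, which shortens chemokine receptor signals, was at 10.57, 10.33 and 8.59 against 5.85, 6.42 and 6.53 (-3.56 ± 0.46), and Rgs2 at 10.42, 10.07 and 8.79 against 8.44, 8.25 and 7.96 (-1.54 ± 0.33). LSK 3 was the lowest LSK array for both and remained above the promyelocytes. Prkch and Prkce, protein kinases C, fell by 2.40 ± 0.30 and 1.35 ± 0.18. In the Notch, Wnt and TGF-beta pathways 7 of 37 genes fell, among them the Wnt receptor Fzd6 (7.31, 7.11 and 7.48 against 5.24, 5.91 and 5.16) and its effector Tcf7l2 (6.72, 6.80 and 6.86 against 5.32, 5.52 and 5.26), while Dtx4, a Notch pathway ubiquitin ligase, rose by 1.91 ± 0.22. S1pr1, the sphingosine 1-phosphate receptor of cell egress, fell by 1.95 ± 0.27 and S1pr3 rose by 1.27 ± 0.18, in both with separate groups.

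Immediate early genes, which are transcribed within minutes of a stimulus, were high in LSK cells. Of 30 measured 16 fell and 14 did not pass, with a median of -1.05. Nr4a2, an orphan nuclear receptor, was at 8.80, 8.24 and 6.66 in LSK cells and 5.49, 5.58 and 6.08 in promyelocytes (-2.19 ± 0.36). Egr1 was at 9.10, 9.29 and 8.28 against 6.39, 6.55 and 7.95, and Junb at 7.73, 7.63 and 6.92 against 5.93, 6.25 and 6.58. LSK 3 was the lowest LSK array in all 3 and promyelocyte 3 the highest of its group, leaving gaps of 0.59, 0.33 and 0.35 between the groups. Over the whole list the means were 8.61, 8.54 and 7.33 on the LSK arrays and 6.86, 6.82 and 7.40 on the promyelocyte arrays, so the third array of each group was closer to the other group, and LSK 3 lay under promyelocyte 3. Zfp36, which destabilises cytokine messages, was at 11.04, 11.06 and 10.58 against 8.23, 8.45 and 9.50 (-2.17 ± 0.25), Dusp5 fell by 1.69 ± 0.28 and Csrnp1 by 1.51 ± 0.23. Without LSK 1, or without LSK 2, 10 genes of the list were called, and without LSK 3, 22. The part of these arrays in the result was not tested beyond leaving them out.

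The cyclic AMP response element TGACGTCA, searched on both strands, was in 2.48% of all promoters, in 3 of the 15 called genes with a promoter (20%: Btg2, Dusp1 and Ppp1r15a) and in none of 12 uncalled members. Over all genes called lower its share was 1.66%, under that of all promoters. Other motifs were as frequent in the 15, with AGATAA in 20.0% and TATAAA in 26.7%, and CACGTG was in 33.3% of the 12. The 140 bases shown for Ppp1r15a, which relieves a block of translation, are chr7:45526269-45526408 (-), and those for the phosphatase gene Dusp1 are chr17:26508542-26508681 (-), with the element in capitals.
Ppp1r15a: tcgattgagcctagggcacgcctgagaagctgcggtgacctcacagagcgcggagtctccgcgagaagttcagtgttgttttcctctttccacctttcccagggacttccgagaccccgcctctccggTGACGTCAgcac
Dusp1: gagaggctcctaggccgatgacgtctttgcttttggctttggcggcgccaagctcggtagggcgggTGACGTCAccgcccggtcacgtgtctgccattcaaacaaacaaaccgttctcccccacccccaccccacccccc

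Ppp1r15a was at 8.54, 8.52 and 7.82 against 6.42, 6.92 and 7.14 (-1.47 ± 0.26, adjusted p = 0.0012). Dusp1 was at 11.34, 11.07 and 9.42 against 8.83, 9.31 and 9.45, its LSK 3 value lying between those of promyelocytes, and the call (-1.41) was lost without LSK 1 (-1.05), LSK 2 (-1.18) or promyelocyte 1 (-1.23). Btg2 (-1.07) lost its call without LSK 1 (-0.81), LSK 2 (-0.88) or promyelocyte 3 (-0.94).

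For the interferon-induced genes the list means of the 2 groups did not overlap, although the arrays of some members did. Of 46 measured 14 fell and 32 did not pass, the median was -0.71, and 5 had a difference above 0. In 31 of the 46 every LSK array lay above every promyelocyte array, and in 1 the reverse. Over all genes 26.4% were separated in this way, both directions counted together. Means over the list were 6.70, 6.62 and 6.92 on the LSK arrays and 5.82, 6.08 and 5.66 on the promyelocyte arrays. Ddx58, the RNA sensor RIG-I, was at 8.07, 8.04 and 8.65 against 6.02, 6.46 and 6.03 (-2.08 ± 0.17), and Irf7, the factor that amplifies the response, at 6.75, 6.96 and 7.21 against 4.81, 5.46 and 4.73 (-1.97 ± 0.22). Oas3, a sensor of double-stranded RNA, was at 6.03, 6.37 and 6.73 against 4.76, 5.33 and 4.59 (-1.48 ± 0.22). LSK 3 was the highest LSK array and promyelocyte 2 the highest promyelocyte array in all 3. Rtp4 fell by 3.36 ± 0.32 (10.3-fold), Oasl2 by 1.89 ± 0.23, Parp12 by 1.75 ± 0.23 and Ddx60 by 1.68 ± 0.25. Of the 14 calls 13 held without each array in turn, and Isg20 (-1.14) was at -0.99 without promyelocyte 1. Irf1 (-0.67) and Ifit3 (-0.20) were not called, and the groups overlapped in Ifit3. Ifi209, an interferon-inducible gene outside the list, rose by 2.67.

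The core of the interferon-stimulated response element, GAAANNGAA on either strand, was in 7.90% of all promoters. It was in 5 of the 10 called list genes with a promoter (50%: Ddx58, Ddx60, Ifit1, Oas3 and Samd9l) and in 13 of 22 uncalled ones (59.1%). Ddx60 at chr8:61927947-61928086 (+), Oas3 at chr5:120777660-120777799 (-) and Ifit1 at chr19:34640727-34640866 (+) are shown because each holds at least 2 copies before the start site, marked by capitals. Overlapping copies run together in Oas3 and Ifit1.
Ddx60: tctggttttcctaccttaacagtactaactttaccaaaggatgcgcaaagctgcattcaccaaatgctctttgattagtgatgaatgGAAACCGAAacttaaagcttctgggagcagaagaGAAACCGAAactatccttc
Oas3: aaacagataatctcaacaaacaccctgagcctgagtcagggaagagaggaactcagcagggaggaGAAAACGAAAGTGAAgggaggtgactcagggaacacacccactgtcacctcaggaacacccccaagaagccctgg
Ifit1: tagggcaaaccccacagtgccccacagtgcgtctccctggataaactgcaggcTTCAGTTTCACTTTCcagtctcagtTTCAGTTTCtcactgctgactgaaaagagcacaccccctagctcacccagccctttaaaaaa

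Ifit1 itself was at 5.26, 5.26 and 6.08 in LSK cells and 3.95, 4.14 and 3.65, dim signal, in promyelocytes.

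Over all called genes, the RUNX letters TGTGGT were in 22.5% of the 249 promoters of genes that rose, 15.2% of the 422 of genes that fell and 14.2% of all, and the ETS letters GGAAGT in 35.3%, 24.2% and 25.1%. For C/EBP, TTGCNNAA, the shares were 11.2%, 8.06% and 9.68%, and for AP-1, TGANTCA, 10.8%, 6.87% and 6.91%. The GATA letters AGATAA gave 8.84%, 8.77% and 9.54%, the TATA box TATAAA 10.4%, 10.2% and 12.1%, the E-box CACGTG 9.64%, 8.29% and 8.42%, the cyclic AMP response element 1.20%, 1.66% and 2.48%, and the interferon-stimulated core 9.24%, 10.2% and 7.90%. Both strands were read for each.

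Among the decreases that rank 11 to 40, receptors and channels stood beside lineage factors. Vldlr, a lipoprotein receptor, was at 8.30, 7.58 and 8.62 in LSK cells and 4.40, 5.08 and 4.68 in promyelocytes (-3.44 ± 0.22, 10.9-fold). Gcnt2, which branches surface glycans, was at 10.17, 9.86 and 10.59 against 6.47, 7.53 and 6.70 (-3.31 ± 0.24, 9.90-fold), and Stxbp4 at 8.65, 7.88 and 9.05 against 5.04, 5.46 and 4.87 (-3.40 ± 0.27, 10.6-fold). LSK 3 was the highest and promyelocyte 2 its group's highest array in all 3, and the groups lay at least 2.34 apart. Myct1 fell by 3.20 ± 0.39, the calcium channel Trpc6 by 3.13 ± 0.29, Prrg4 by 2.51 ± 0.29 and the tetraspanins Tspan6 and Tspan13 by 2.68 ± 0.30 and 2.52 ± 0.40. Slc35f2 fell by 2.57 ± 0.25 and Lncpint, a long noncoding RNA, by 2.44 ± 0.22. Car1, the carbonic anhydrase of erythroid cells, was at 9.42, 10.51 and 8.19 against 6.39, 8.01 and 6.41 (-2.44 ± 0.49), and it was the only erythroid marker of 9 that was called. Txnip, a brake on glucose uptake, fell by 1.66 ± 0.22, the cholesterol exporter Abca1 by 1.61 ± 0.18 and Aldh1a1, a marker of stem cell detoxification, by 2.01 ± 0.33. Of 37 chromatin regulators 4 fell, of which Tet1 (-1.14 ± 0.19) and Kdm6b (-1.29 ± 0.23) were called without each array in turn, while Kmt2a (-1.13) and Smarca2 (-1.14) were at -0.93 and -0.95 without LSK 3.

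The arrays also read some miRNA genes through rows that detect precursor transcripts. Of 300 such genes 3 fell and none rose by limma, with 62 at an unadjusted p under 0.05, of which 42 had a difference above 0. Over all genes 2.75% fell and 1.61% rose, so miRNA genes were not called more often than genes in general. Mir27a was at 8.93, 8.47 and 6.97 in LSK cells and 6.66, 6.66 and 6.60 in promyelocytes (-1.48 ± 0.33, adjusted p = 0.0071), and its neighbours in the same transcript, Mir23a (-1.08 ± 0.38) and Mir24-2 (-0.54 ± 0.35), were not called. LSK 3 was the lowest LSK array in all 3, under every promyelocyte array in Mir24-2. Mir155 fell by 1.07 ± 0.23 to dim signal and Mir680-2 by 1.01 ± 0.27. The first of these calls was lost without LSK 1 (-0.82) or promyelocyte 1 (-0.89) and the other without LSK 3 (-0.69) or promyelocyte 2 (-0.76). These rows do not measure mature RNAs, which the study read by RT-qPCR in whole cells of the same types. There miR-27a and miR-27a* were higher in promyelocytes than in LSK cells, opposite to the Mir27a row, and miR-155 was lower. The mature RNAs of these genes in RefSeq are given with the seed (bases 2 to 8) in capitals, and no seed is shared among them.
miR-27a-3p: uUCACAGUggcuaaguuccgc
miR-27a-5p: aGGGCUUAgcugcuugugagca
miR-155-5p: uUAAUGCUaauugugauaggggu
miR-155-3p: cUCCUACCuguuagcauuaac
miR-680: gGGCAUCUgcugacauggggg

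How the called genes stood later was read from the myelocyte and granulocyte arrays, which are no part of the difference between promyelocytes and LSK cells but share its estimate of spread, choice of rows and dim level. Granulocytes minus myelocytes gave 469 genes higher (2.35% of those tested) and 1188 lower (5.96%). Of the 321 genes that rose in promyelocytes 70 (21.8%) were lower at this later step and 19 (5.92%) higher, and of the 549 that fell 63 (11.5%) were higher and 17 (3.10%) lower. The 70 were 5.89% of all genes lower there, and the 63 were 13.4% of all genes higher there. By groups, 8 of the 14 secretory genes were lower and none higher, among them Sdf2l1, Hyou1 and Pdia6, and their means were 8.06 in LSK cells, 9.40 in promyelocytes, 7.99 in myelocytes and 6.99 in granulocytes. Of the 10 primary granule genes 5 were lower. Of the 16 immediate early genes 7 were higher (means 8.76, 7.07, 8.05 and 8.93 over the 4 stages), and of the 14 interferon-induced genes 7 were higher (6.59, 4.72, 6.65 and 7.78), Rtp4 and Ddx60 among them. By limma none of the 19 stem cell transcription factors was called in either direction (5 at an unadjusted p under 0.05), their means being 7.69, 5.93, 5.55 and 5.45. The 5 eosinophil markers had means of 5.03, 8.32, 5.84 and 5.85 and were not called later by limma (0 at an unadjusted p under 0.05), whereas 4 of the 6 basophil and mast cell markers were lower in granulocytes. Of the 8 monocyte and macrophage markers 5 were lower in granulocytes and 3, Csf1r among them, higher.

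**Figure D5:**
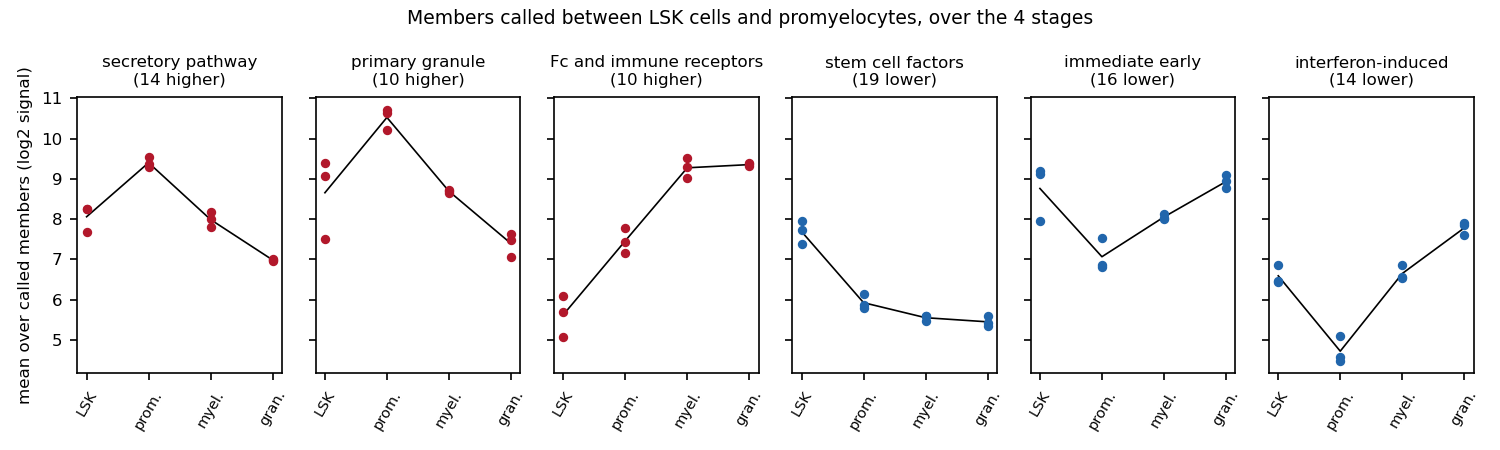
Mean log2 signal of the called members of 6 lists (number and direction of the calls in parentheses) on each of 3 arrays (points) in LSK cells, promyelocytes (prom.), myelocytes (myel.) and granulocytes (gran.), with a line through the stage means. The step from LSK cells to promyelocytes is fixed by the choice of members. The secretory and primary granule means fall later, the interferon-induced mean rises and the mean of the stem cell factors stays low.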

How the data were processed

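The authors extracted total RNA of each sample with Trizol, copied it to cDNA, amplified it as cRNA and converted that to single-stranded DNA. This DNA was fragmented, labelled and hybridised to an Affymetrix Mouse Gene 1.0 ST array. The arrays were normalized together with justRMA (the sources used here name no version). The deposited values are therefore RMA signals on a log2 scale, 1 per probe set, with no replicates pooled. The number of arrays, 3 per group, limits the precision. The labels call the arrays biological replicates and do not say that separate animals gave them, so a p-value here describes only how these samples scatter, which may be technical. RMA compresses small signals and forces array distributions to agree, and differences are relative to the bulk of genes.

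Of 34760 rows 21640 carried exactly 1 gene symbol in the platform table, 1321 several and 11799 none. Rows with 1 symbol were kept and each gene was represented by its brightest row on average over 12 arrays. Group means of all 12 arrays were fitted in limma 3.58.1 (R 4.3.3) with empirical Bayes. A gene was called at a Benjamini-Hochberg adjusted p under 0.05 over 19937 genes and a fold of at least 2. The script was tested on simulated data. The dim level was the 95th percentile of the means of olfactory and vomeronasal receptor genes over the 12 arrays.

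Named genes were members of 57 gene lists, members of runs of at least 3 neighbouring genes called the same way, and genes ranking 11 to 40 by size among called genes whose groups did not overlap. Genes known only as predicted models were not named, and a gene that the rule would name may not be reported here. The lists and the comparison were chosen with earlier results of these data known. Lists were described by counts and medians without a set test. Promoters, miRNAs and gene order came from RefSeq tables (GRCm38.p6), and genes without an entry were left out of motif counts. Alternatives were other scalings, a filter on dim genes, other row choices, a fit to 6 arrays, other thresholds, other variance priors, array weights, the replicate number as a block and leaving out each array.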

Additional observations from a re-analysis of the deposited data

How the results depend on the processing

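The total counts of genes higher and lower over all genes kept within 1.5 times their values above under every alternative tried, whereas counts within some lists moved by more. For promyelocytes minus LSK cells they ran from 231 to 403 higher and from 480 to 627 lower when 1 array was left out, the lowest of both without LSK 3. Centring each array on its median gave 407 higher and 462 lower, so the share of higher among called genes was 46.8% instead of 36.9%, with the median of all genes at 0.12 instead of 0.04, and array weights gave 417 and 533. Scaling to the 75th percentile moved granulocytes minus myelocytes to 635 higher and 886 lower. The secretory list had 20 calls after median centring and 25 with array weights, and the immediate early list had 10 in a fit to the 6 arrays or at an adjusted p under 0.01. When 1 array was left out, granulocytes minus myelocytes gave 431 to 517 genes higher and 1095 to 1248 lower. For genes under the dim level signal over background was too low to give a fold.

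Replicate numbers are shared between the groups. The correlations of same-numbered deviations of LSK cells and promyelocytes were 0.25, -0.25 and 0.13. Of 6 samples, 2 correlated best with their own number. With so few arrays per group, these values cannot decide whether the numbers pair the samples. Whether same-numbered samples shared an origin was not tested. With the replicate number as a block 328 genes were higher and 550 lower in promyelocytes, and 469 higher and 1191 lower in granulocytes.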
